A study of Mus musculus with 8 samples.

Results

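Splicing factor genes of 3 name families, Hnrnp, Srsf and Rbm (with the Rbmx genes), were followed in the mouse colonic epithelial line MCE301 during treatment with sodium butyrate. A probe set belonged to a family when its gene symbol in the platform annotation began with Hnrnp or Rbmx, or with Srsf or Rbm and a digit. This gave 51 genes with 135 probe sets, out of 12393 named genes on the array: 18 Hnrnp genes, 9 Srsf genes and 24 Rbm genes. Each gene was represented by 1 probe set, selected on its mean signal over the 8 arrays, and 50 of the 51 were among the 7340 genes that passed a filter on low values and were tested. Rbm4b did not pass, since its brighter probe set had signals of 45.6 to 81.8, all below the 144.7 that the filter required on at least 2 arrays. The tested members with the lowest mean signals were Hnrnph3 (131.8) and Rbm43 (162.2).

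MCE301 is a single cell line from transgenic mice, and all 4 groups carry its transgene for a temperature-sensitive T-antigen (the large one of simian virus 40). Butyrate, a fatty acid made by gut bacteria that inhibits histone deacetylases, was given at 2 mM for 0, 6, 12 or 24 h, with 2 arrays of total RNA for each time. Whether the 2 arrays of a time are separate cultures is not stated, so the p-values cover the spread between arrays only, and that spread may be technical. Untreated cells of the later times were not analysed here, so butyrate and time in culture cannot be told apart.

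The heterogeneous nuclear ribonucleoproteins (Hnrnp genes) coat nascent transcripts, often bind silencer elements and can repress nearby splice sites. The SR proteins (Srsf genes) carry a domain rich in arginine and serine, bind exonic enhancers and recruit the spliceosome, and they are phosphorylated by the SRPK and CLK kinases. The Rbm genes share a name for an RNA-binding motif protein and differ in role, from spliceosome subunits to adaptors of RNA modification and decay.

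After 24 h, 33 of the 50 tested members had fallen and 0 had risen (limma on all 8 arrays, Benjamini-Hochberg adjusted p under 0.05 over 7340 genes), with 13 Hnrnp, 6 Srsf and 14 Rbm genes lower. Of all genes tested, 23.5% were lower and 24.6% higher at 24 h. At 12 h, 24 members had fallen, 12 Hnrnp, 3 Srsf and 9 Rbm genes, beside 17.5% of all genes lower and 18.1% higher. At 6 h, 4 members had fallen, 1 Hnrnp, 1 Srsf and 2 Rbm genes, or 8.0% of them, beside 6.68% of all genes lower and 9.06% higher. The share of members called lower at 6 h was near the background in this fit, while at 24 h it was 66% of the members. In limma, 0 members were called higher at 6, 12 or 24 h, and at an unadjusted p under 0.05 the numbers higher were 1 (Hnrnpul2), 0 and 0. At that unadjusted threshold 14, 29 and 37 members were lower, and the share of all genes at it is not given here. With the replicate number as a block, 11 members (22%) were lower and 1, Hnrnpul2, was higher at 6 h, beside 9.32% of all genes lower and 12.4% higher in the same fit, so the 6 h reading differed between the fits. The numbers lower in the blocked fit were 27 (54%) at 12 h and 37 (74%) at 24 h, beside 20.6% and 26.4% of all genes. The 3 comparisons share the 0 h arrays. Single arrays moved these counts: at 24 h, 21 members were lower without 0 h replicate 2, beside 18.1% of all genes. At 12 h, 13 (26%) were lower without 0 h replicate 1, beside 10.6% of all genes. Without 12 h replicate 2 it was 10 (20%), beside 11.5%, and without 0 h replicate 2 it was 8 (16%), also beside 11.5% and so near the background. With no filter on low values 12 (24%) were lower at 12 h, beside 7.24%. At 6 h, 1 was lower without 0 h replicate 1, beside 2.18% of all genes, and 2 were lower when any other array of the 2 times was left out, beside 2.49% to 3.90%.

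**Figure D1:**
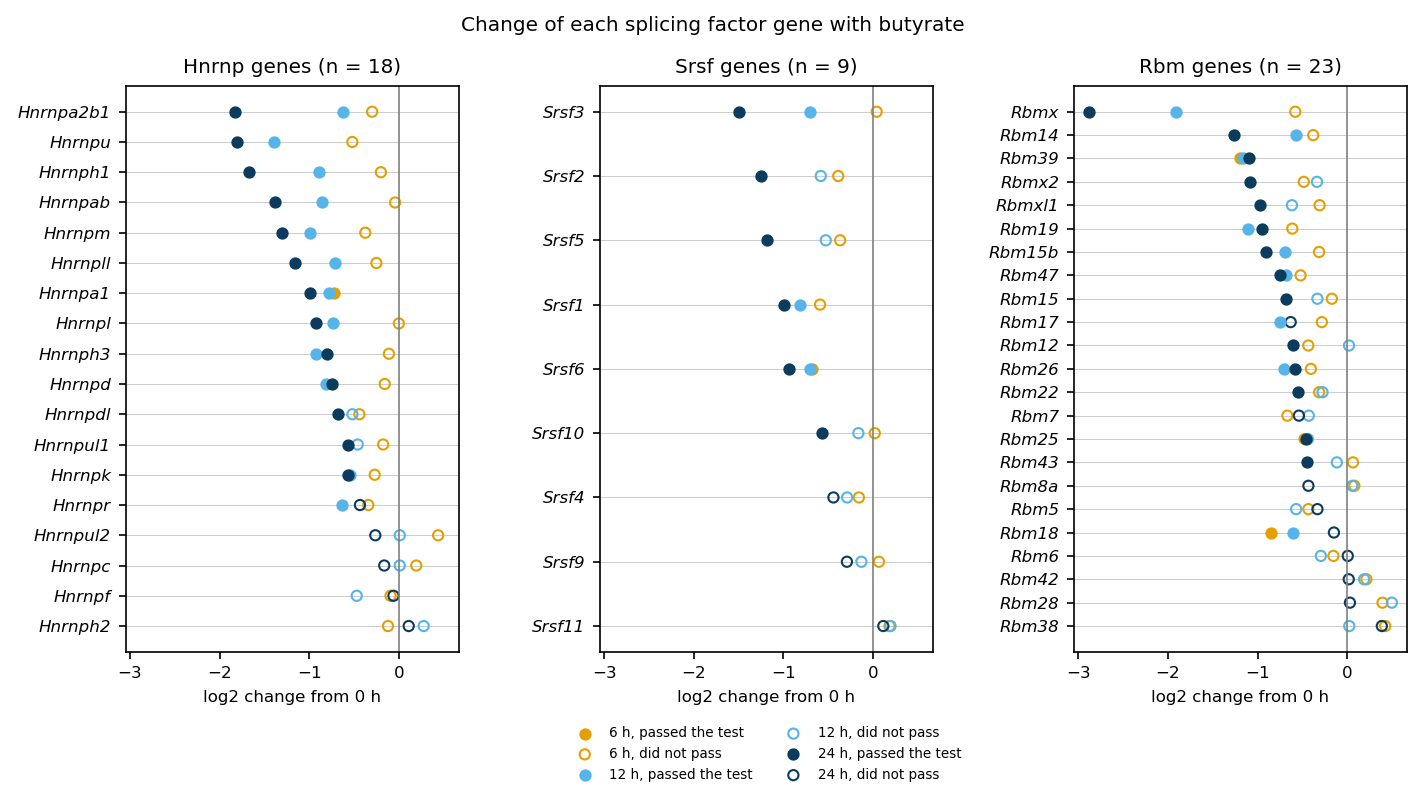
Each row is 1 tested gene, and the x axis is the log2 change of signal plus 32 from 0 h, with 6 h in orange, 12 h in light blue and 24 h in dark blue. Filled points passed the test (limma adjusted p under 0.05) and open points did not; all 33 filled points at 24 h lie left of 0, with Rbmx farthest at -2.88.

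The family medians moved down together. The median log2 change of the Hnrnp genes was -0.19 at 6 h, -0.67 at 12 h and -0.77 at 24 h. That of the Srsf genes was -0.16, -0.53 and -0.94, and that of the Rbm genes was -0.38, -0.44 and -0.58. Over all genes tested the median was 0.013 at 6 h, 0.026 at 12 h and 0.039 at 24 h. Of the 50 members, 39, 41 and 44 had an estimate below 0 at the 3 times, whether or not they passed the test. Of all 7340 genes tested, 3565, 3522 and 3496 had an estimate below 0. At 24 h, 13 members were called lower by at least 2-fold on the log2(signal + 32) scale: 6 Hnrnp, 3 Srsf and 4 Rbm genes. By the same measure, 700 of all 7340 genes tested were lower and 679 higher. The Hnrnp median at 6 h was -0.12 with 6 h replicate 1 left out and -0.26 without 0 h replicate 1. It was -0.50 at 12 h without 12 h replicate 2. At 24 h it was -0.68 without 24 h replicate 2 and -0.86 with a pseudocount of 8. The Rbm median at 6 h was -0.33 to -0.40 when any 1 array of the 2 times was left out. It was -0.31 with the mean of all kept probe sets and -0.41 with quantile normalization. The Srsf median at 6 h depended on each array: leaving out 0 h replicate 1 gave -0.32, 0 h replicate 2 gave -0.059, 6 h replicate 1 gave -0.11 and 6 h replicate 2 gave -0.062. At 12 h the Srsf median was -0.30 with 12 h replicate 1 left out and -0.28 with 12 h replicate 2 left out. It was -0.68 without 0 h replicate 1 and -0.37 without 0 h replicate 2. At 24 h the Srsf median was -0.76 without 0 h replicate 2. It was -1.02 without 0 h replicate 1, and also -1.02 with the mean of all kept probe sets. These medians describe genes chosen with earlier results of the same arrays known, and no test was made of a family against the rest.

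**Figure D2:**
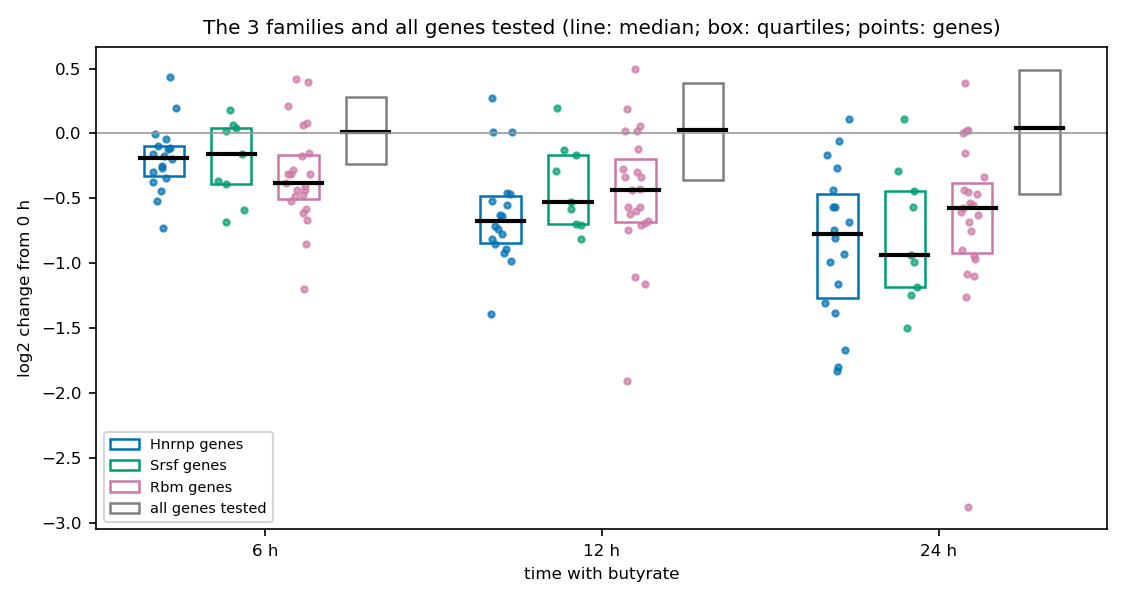
The y axis is the log2 change from 0 h at each time, points are the genes of a family, lines are medians and boxes span the quartiles; all genes tested are drawn as a box and line only. The family medians lie below 0 at every time, from -0.16 (Srsf at 6 h) to -0.94 (Srsf at 24 h), while the median of all genes lies between 0.013 and 0.039.

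The time classes were as follows. Hnrnpa1, Srsf6 and Rbm39 were called at 6, 12 and 24 h. Another 18 members were called at 12 and 24 h, 12 at 24 h only, 2 (Hnrnpr and Rbm17) at 12 h only, and 1 (Rbm18) at 6 and 12 h but not 24 h. The remaining 14 were called at no time, which does not show that they kept their level. The shares of all genes in the same classes are not given here, so these counts have no background beside them. A call in 1 comparison and not in another is no test of the difference between times, and those tests are given further down.

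Markers of proliferation moved with the families. The summed signal of 13 cell-cycle genes was 24912 and 27538 at 0 h, 19443 and 19555 at 6 h, 11425 and 12878 at 12 h, and 4088 and 4207 at 24 h, and all 13 were lower at 24 h; their part in the results was not tested. All 8 epithelial markers passed the filter, and their summed signal was 65130 and 72147 at 0 h and 86308 and 101047 at 24 h. Of these markers, 5 were called higher and 0 lower at 24 h, with a median log2 change of 0.53, beside 24.6% of all genes higher. Krt7 was the 1 epithelial marker with an estimate below 0 at 24 h (-0.41, not called). Its signals were 12117 and 13529 at 0 h and 9141 and 10112 at 24 h. None of the 8 fibroblast and none of the 5 endothelial markers passed the filter, at summed signals of 249.9 to 412.5 and 95.6 to 228.5. Of the 7 immune markers on the array, Cd68 and Csf1r passed, while Ptprc, which marks all leukocytes, lay between 14.9 and 109.4. Cd68 rose by 1.28 on the log2 scale at 24 h (limma adjusted p = 0.000116) and Csf1r fell, with a log2 change of -1.52 (0.000197). The part of these markers in the results was not tested. In RNA from a whole culture, fewer cells with a transcript and less of it per cell cannot be told apart.

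Promoter windows of the members were compared because the genes moved together. RefSeq (GRCm38.p6) gave a window from 250 bases before to 50 bases after the start for 46 of the 50 tested members, and none was found for Hnrnpll, Hnrnpul2, Rbm22 and Rbm8a. The windows below are those of Rbmx, Rbm39, Hnrnpa2b1 and Srsf3, which had the largest falls of their family at 24 h or, for Rbm39, at 6 h, and of Hnrnpc, a bright member that was not called. They are written 5′ to 3′ on the gene's strand, and capitals mark CCAAT and CTCGCGAG on either strand, so that ATTGG in capitals is CCAAT on the other strand.
Rbmx (chrX:57392987-57393286, minus strand): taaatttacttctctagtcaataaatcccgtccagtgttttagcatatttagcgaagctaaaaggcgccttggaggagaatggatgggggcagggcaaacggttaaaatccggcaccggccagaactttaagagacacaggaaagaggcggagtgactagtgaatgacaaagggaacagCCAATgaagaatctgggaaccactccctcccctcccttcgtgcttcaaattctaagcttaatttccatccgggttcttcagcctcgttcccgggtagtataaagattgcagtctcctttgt
Rbm39 (chr2:156180189-156180488, minus strand): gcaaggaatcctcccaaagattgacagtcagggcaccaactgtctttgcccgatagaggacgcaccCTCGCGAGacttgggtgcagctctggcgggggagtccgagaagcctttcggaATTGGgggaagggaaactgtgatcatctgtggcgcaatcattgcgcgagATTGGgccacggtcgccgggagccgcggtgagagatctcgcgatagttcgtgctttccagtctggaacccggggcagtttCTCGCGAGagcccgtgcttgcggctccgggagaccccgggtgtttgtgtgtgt
Hnrnpa2b1 (chr6:51469845-51470144, minus strand): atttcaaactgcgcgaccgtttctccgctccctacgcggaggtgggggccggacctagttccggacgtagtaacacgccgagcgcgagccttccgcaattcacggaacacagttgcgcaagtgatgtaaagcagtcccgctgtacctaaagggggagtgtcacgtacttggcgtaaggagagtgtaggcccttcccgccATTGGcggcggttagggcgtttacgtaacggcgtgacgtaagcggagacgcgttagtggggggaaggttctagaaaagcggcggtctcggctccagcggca
Srsf3 (chr17:29032410-29032709, plus strand): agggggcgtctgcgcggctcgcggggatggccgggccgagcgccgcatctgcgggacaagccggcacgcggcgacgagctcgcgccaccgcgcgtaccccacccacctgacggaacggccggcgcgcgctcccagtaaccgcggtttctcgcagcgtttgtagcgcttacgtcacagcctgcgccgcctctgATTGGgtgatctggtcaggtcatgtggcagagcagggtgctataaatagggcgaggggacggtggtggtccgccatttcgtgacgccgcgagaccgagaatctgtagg
Hnrnpc (chr14:52103972-52104271, minus strand): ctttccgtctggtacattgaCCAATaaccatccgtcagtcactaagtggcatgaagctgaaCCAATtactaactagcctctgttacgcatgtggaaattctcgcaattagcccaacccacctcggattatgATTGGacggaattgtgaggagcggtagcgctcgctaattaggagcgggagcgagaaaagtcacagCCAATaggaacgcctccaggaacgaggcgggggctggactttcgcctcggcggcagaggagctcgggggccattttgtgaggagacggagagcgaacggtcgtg

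CCAAT, the letters bound by the NF-Y factor, stood on either strand in 26 of the 46 member windows (56.5%), in 39.0% of the windows of 6043 tested genes and in 37.4% of 32851 windows in all. It was in 19 of the 31 windows of members lower at 24 h and in 7 of the 15 windows of members not called, and the number of copies did not follow the calls: 4 copies stood in Hnrnpa1, Hnrnpl, Hnrnpul1 and Rbm14, which were called lower at 24 h, and in Hnrnpc and Hnrnpr, which were not, and Rbmx, Hnrnpa2b1 and Srsf3 held 1 each. CTCGCGAG was in 6 of the 46 (13.0%), beside 2.30% of tested genes and 0.919% of all windows, and the Rbm39 window held 2 copies, one of them at the start site. TATAAA was in 8 of the 46 (17.4%), beside 6.57% of tested genes and 13.6% of all windows. Those 8 were Hnrnpab, Hnrnpm, Rbm25, Rbm43, Rbmx, Rbmx2, Srsf2 and Srsf3, all called lower at 24 h. Of the 46 members with a window, 31 were called lower at 24 h. GGGCGG, the core of a GC box, was in 63.0% of member windows and 69.2% of those of tested genes. CCGGAAG, the letters of an ETS site, was in 17.4% and 21.0%, and CACGTG, an E-box, in 10.9% and 10.8%. These matches are descriptions of letters in 1 window per gene, the first listed for the 10 members with several, and no test was made of them.

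Among the Hnrnp genes, the falls were led by Hnrnpa2b1, Hnrnpu, Hnrnph1 and Hnrnpab, whose 24 h signals were below those of every 0 h array. Hnrnpa2b1 (probe set 1420365_a_at), which binds exonic silencers and takes part in RNA transport, had signals of 4151 and 4770.5 at 0 h, 3203 and 4075 at 6 h, 3136 and 2623 at 12 h, and 1242 and 1209 at 24 h. On the log2 scale most of the loss on this probe set lay between 12 and 24 h, and the 24 h mean was 27.5% of the 0 h mean. The timing depended on the probe set. Most of the change came by 12 h on 1433829_a_at (-0.97 at 12 h, -1.68 at 24 h) and 1433830_at (-0.74, -1.04). On 1434047_x_at (-0.80, -1.92) it came later. For the probe set used, the log2 change at 24 h was -1.83 ± 0.18 (3.56-fold lower, limma adjusted p = 2.97e-05). At 12 h it was -0.63 (adjusted p = 0.0199), which was not called without 0 h replicate 2 (0.122) or 12 h replicate 2 (0.132). Hnrnpu (1423051_at), also called scaffold attachment factor A, binds chromatin-associated RNA and had signals of 6467 and 6558 at 0 h, 4605 and 4467 at 6 h, 2326 and 2606 at 12 h, and 1626 and 2096 at 24 h. Its arrays stepped down at each time with no overlap, and the log2 change was -1.39 ± 0.17 at 12 h (adjusted p = 0.000257) and -1.80 ± 0.17 at 24 h (2.49e-05). At 6 h it was -0.52 (adjusted p = 0.0646), which was called with the replicate block (0.0365).

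Hnrnph1 (1415872_at), which binds runs of guanines, had signals of 2862 and 2904 at 0 h, 2316 and 2709.9 at 6 h, 1701 and 1389 at 12 h, and 962 and 812 at 24 h. Its arrays at 12 h and 24 h lay below all earlier ones, with log2 changes of -0.89 ± 0.17 (limma adjusted p = 0.00311) and -1.67 ± 0.17 (4.14e-05). Hnrnpab (1455855_x_at), the CArG-box binding factor A and the brightest member, had signals of 6675 and 9289 at 0 h, 8075 and 7245 at 6 h, 3852 and 4900.0 at 12 h, and 2959 and 3024 at 24 h. The 0 h arrays were the more unequal pair, and the 6 h arrays lay between them. The log2 change was -1.39 ± 0.20 at 24 h (adjusted p = 0.000299) and -0.85 ± 0.20 at 12 h (0.00763), the latter not called without 0 h replicate 2 (0.0697) or 12 h replicate 1 (0.062). Hnrnpm (1426698_a_at), which acts on splice choices of epithelial and mesenchymal cells, had signals of 1427 and 1415 at 0 h, 1389 and 852 at 6 h, 893 and 549 at 12 h, and 679 and 453 at 24 h. Replicate 2 was the lower array at 6, 12 and 24 h. Its log2 change came to -1.31 ± 0.28 at 24 h (adjusted p = 0.00356) and -0.99 ± 0.28 at 12 h (0.0207), the 12 h call being lost without 0 h replicate 1, 0 h replicate 2 or 12 h replicate 2 (0.0849 to 0.159).

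Hnrnpa1 (1455305_x_at), the prototype silencer protein that opposes SR proteins, had signals of 1932 and 1867 at 0 h, 1309.5 and 985 at 6 h, 1311 and 917 at 12 h, and 1014 and 867 at 24 h. It was below the 0 h arrays from 6 h on, and its later arrays overlapped those of 6 h. In the fit its log2 change was -0.73 ± 0.21 at 6 h (limma adjusted p = 0.0402), -0.77 ± 0.21 at 12 h (0.0153) and -0.99 ± 0.21 at 24 h (0.00294). Its call was lost at 6 h without 0 h replicate 1, 0 h replicate 2 or 6 h replicate 2 (0.134 to 0.2) and at 12 h without 0 h replicate 1, 0 h replicate 2 or 12 h replicate 2 (0.0619 to 0.128). Hnrnpll (1425255_s_at), known for silencing variable exons of CD45 in lymphocytes, went from 2808 ± 43.3 at 0 h to 1245 ± 145 (SD, n = 2) at 24 h, a log2 change of -1.16 ± 0.18 (adjusted p = 0.000499). Its relative Hnrnpl (1424101_at), which binds CA repeats, had signals of 657 and 636 at 0 h, 670.4 and 623 at 6 h, 473 and 296 at 12 h, and 279.9 and 377 at 24 h. The 0 h and 6 h arrays of Hnrnpl overlapped, and those of 12 h and 24 h lay below both. The log2 change was -0.93 ± 0.22 at 24 h (adjusted p = 0.00565) and -0.74 at 12 h (0.0238). These calls were lost at 24 h without 24 h replicate 1 (0.0515) and at 12 h without 0 h replicate 1, 0 h replicate 2 or 12 h replicate 2 (0.0858 to 0.198).

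The smaller falls of the family included Hnrnpk, Hnrnpd and Hnrnph3. Hnrnpk (1423684_at), a KH-domain protein that binds poly(C), had signals of 5019 and 5268 at 0 h, 4272 and 4249 at 6 h, 3638 and 3378 at 12 h, and 3426 and 3514 at 24 h. It reached its low level by 12 h, and its log2 change was -0.56 ± 0.15 at 24 h (limma adjusted p = 0.01). The call was lost at 24 h without 0 h replicate 2 (0.0561) and at 12 h without 0 h replicate 1, 0 h replicate 2 or 12 h replicate 2 (0.0541 to 0.0916). Hnrnpd (1425142_a_at), or AUF1, which binds AU-rich elements of unstable messenger RNAs, had signals of 1722 and 2700.1 at 0 h, 1719 and 2169 at 6 h, 1351 and 1088 at 12 h, and 1238 and 1309 at 24 h. Its 0 h arrays differed from each other by more than its 12 h and 24 h arrays did. Its log2 change came to -0.81 ± 0.23 at 12 h (adjusted p = 0.0175) and -0.75 ± 0.23 at 24 h (0.0197). The calls were lost at 12 h without 0 h replicate 2 (0.151) or 12 h replicate 2 (0.114) and at 24 h without 0 h replicate 2, 24 h replicate 1 or 24 h replicate 2 (0.0581 to 0.175). Hnrnph3 (1455491_at), a dim relative of Hnrnph1, had signals of 185 and 181 at 0 h, 158 and 176 at 6 h, 65.4 and 100.1 at 12 h, and 126 and 64 at 24 h. Its change was -0.92 at 12 h (adjusted p = 0.0125) and -0.80 at 24 h (0.0173), lost at 12 h without 0 h replicate 1, 0 h replicate 2 or 12 h replicate 1 (0.0576 to 0.0945) and at 24 h without 0 h replicate 1, 0 h replicate 2 or 24 h replicate 2 (0.0671 to 0.152).

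The calls of Hnrnpdl, Hnrnpul1 and Hnrnpr were also lost when any 1 of several arrays was left out. Hnrnpdl, a relative of Hnrnpd, had a log2 change of -0.68 at 24 h (limma adjusted p = 0.0213), lost without 0 h replicate 1, 0 h replicate 2 or 24 h replicate 2 (0.0549 to 0.138). Hnrnpul1 had -0.57 (0.0473), lost without 0 h replicate 1, 0 h replicate 2, 24 h replicate 1 or 24 h replicate 2 (0.0709 to 0.209). Hnrnpr was called at 12 h only, at -0.63 (0.0489), and lost without 0 h replicate 1, 0 h replicate 2 or 12 h replicate 2 (0.108 to 0.32). At 24 h, 5 Hnrnp genes were not called. Hnrnpc (1460240_a_at), which binds uridine tracts and guards against the use of cryptic exons, had signals of 4382 and 5612 at 0 h, 5602 and 5757 at 6 h, 5329 and 4679 at 12 h, and 4627 and 4233 at 24 h. Its arrays overlapped in all 3 comparisons with 0 h, and its log2 change at 24 h was -0.16 (95% interval -0.55 to 0.22), so a fall as large as that of Hnrnpa2b1 lies outside its interval. The change of Hnrnph2 at 24 h was 0.11 (95% interval -0.23 to 0.45), that of Hnrnpf -0.06 (-0.68 to 0.56), and those of Hnrnpul2 and Hnrnpr -0.26 (-0.66 to 0.13) and -0.43 (-0.93 to 0.062). The Hnrnpf value depended on the probe set. In a limma fit over all probe sets named for 1 gene, its kept probe set 1450963_at was called lower at 24 h (-0.76, adjusted p = 0.0346). Its 1423382_a_at (-0.42, 0.241) and 1437099_x_at (-0.17, 0.75) were not called.

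Of the 9 Srsf genes, 6 were lower at 24 h: Srsf3, Srsf2, Srsf5, Srsf1, Srsf6 and Srsf10. Srsf3 (1416150_a_at), the smallest SR protein, which also acts in messenger RNA export, had signals of 2660.1 and 2894 at 0 h, 3120.1 and 2611 at 6 h, 1916 and 1491 at 12 h, and 1274 and 725 at 24 h. The 0 h and 6 h arrays overlapped, and the 24 h arrays were the lowest. In the fit its log2 change was -1.50 ± 0.25 at 24 h (2.82-fold lower, limma adjusted p = 0.000736) and -0.70 at 12 h (0.0471), the latter lost without 0 h replicate 1, 0 h replicate 2, 12 h replicate 1 or 12 h replicate 2 (0.0583 to 0.235). Srsf2 (1427504_s_at), known as SC35 and as a marker of nuclear speckles, had signals of 4236 and 4863 at 0 h, 5569 and 2144 at 6 h, 4333 and 2100.1 at 12 h, and 1684 and 2128 at 24 h. Its arrays at 6 h and 12 h each held 1 high and 1 low value, with replicate 2 the lower, and the 24 h arrays lay below those of 0 h. The log2 change at 24 h was -1.25 ± 0.41 (adjusted p = 0.0289), lost without 0 h replicate 1, 0 h replicate 2, 24 h replicate 1 or 24 h replicate 2 (0.0583 to 0.133).

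Srsf5 (1423130_a_at), an SR protein that shuttles between nucleus and cytoplasm, had signals of 4285 and 5345 at 0 h, 3099 and 4427 at 6 h, 2717 and 4033 at 12 h, and 2140.4 and 2034 at 24 h. Its 6 h arrays overlapped those of 0 h, and the 24 h pair was close together below all others. The log2 change at 24 h was -1.19 ± 0.23 (limma adjusted p = 0.00206). At 12 h it was -0.53 (adjusted p = 0.103), called with the replicate block (0.0373) and without 12 h replicate 2 (0.0459). Srsf1 (1428099_a_at), the founding member SF2/ASF, had signals of 3398 and 4699 at 0 h, 2241 and 3113 at 6 h, 1953 and 2616 at 12 h, and 1871 and 2122 at 24 h. No later array reached the 0 h pair, in which replicate 2 was the higher. The log2 change was -0.99 ± 0.23 at 24 h (adjusted p = 0.0049) and -0.81 ± 0.23 at 12 h (0.0185), lost at 24 h without 0 h replicate 2 (0.0511) and at 12 h without 0 h replicate 2 (0.147) or 12 h replicate 1 (0.129). At 6 h it was -0.59 (0.11), called with the replicate block (0.0184).

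Srsf6 (1416721_s_at), or SRp55, had signals of 3632 and 4066 at 0 h, 2281 and 2488 at 6 h, 2558 and 2166 at 12 h, and 1945 and 2043 at 24 h. It was low from 6 h on, and its 6 h and 12 h arrays overlapped. Its log2 change came to -0.68 ± 0.16 at 6 h (limma adjusted p = 0.0188), -0.70 ± 0.16 at 12 h (0.00756) and -0.94 ± 0.16 at 24 h (0.000974). The call was lost at 6 h without 0 h replicate 1, 0 h replicate 2 or 6 h replicate 1 (0.0569 to 0.114) and at 12 h without 0 h replicate 2 (0.0561) or 12 h replicate 2 (0.063). Srsf10 (1418527_a_at), which represses splicing when it is dephosphorylated, had signals of 492 and 473 at 0 h, 509 and 470.2 at 6 h, 431 and 424 at 12 h, and 285 and 349 at 24 h. It fell late, by a log2 change of -0.57 ± 0.16 at 24 h (adjusted p = 0.0138), lost without 0 h replicate 1 (0.0682) or 24 h replicate 1 (0.104). The change of Srsf4 at 24 h was -0.44 (adjusted p = 0.0586), called with the replicate block (0.0479) and without 0 h replicate 1 (0.0463). Srsf9 and Srsf11 were not called at 24 h, at -0.29 (95% interval -0.73 to 0.15) and 0.11 (-0.25 to 0.48).

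The Rbm family held the largest fall of all members. Rbmx (1416354_at), an X-linked gene for hnRNP G that binds RNA and acts in splicing and sister chromatid cohesion, had signals of 813 and 637 at 0 h, 569.6 and 389 at 6 h, 129 and 218 at 12 h, and 58.2 and 83.6 at 24 h. Every array of a later time lay below every array of the earlier times, and the 24 h mean was 9.78% of the 0 h mean. In the fit its log2 change was -0.58 ± 0.25 at 6 h (limma adjusted p = 0.156), -1.91 ± 0.25 at 12 h (0.000399) and -2.88 ± 0.25 at 24 h (1.71e-05). Rbmxl1 (1416177_at), a close sequence relative of Rbmx, so that probes may not fully separate the pair, went from 1691 ± 378 to 857 ± 262 (SD, n = 2). Its log2 change at 24 h was -0.97 ± 0.25 (adjusted p = 0.00936), lost without 0 h replicate 2 (0.0848) or 24 h replicate 1 (0.086). Rbmx2 (1424705_at), a subunit of the spliceosome's retention and splicing complex, had signals of 326 and 340.3 at 0 h, 202 and 259 at 6 h, 258 and 255 at 12 h, and 128 and 154 at 24 h. It fell mainly after 12 h, by a log2 change of -1.08 ± 0.17 at 24 h (adjusted p = 0.000523).

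Rbm39 (1426671_a_at), a U2AF-like splicing factor and transcriptional coactivator, had the largest fall of any member at 6 h, with signals of 829.9 and 750.3 at 0 h, 287 and 371 at 6 h, 392 and 286 at 12 h, and 350.1 and 354 at 24 h. All 6 treated arrays lay at less than the lower 0 h array and overlapped each other. Its log2 change was -1.20 ± 0.19 at 6 h (limma adjusted p = 0.00306), -1.16 ± 0.19 at 12 h (0.00123) and -1.10 ± 0.19 at 24 h (0.001). It was the 1 member called at 6 h under every alternative, but its size depended on the probe set: averaging its kept probe sets gave -0.76 at 6 h, -0.68 at 12 h and -0.72 at 24 h, and one of them, 1438397_a_at, changed by -0.31, -0.071 and -0.15. Rbm18 (1420608_at), an RNA-binding motif protein, moved otherwise, with signals of 633 and 441 at 0 h, 300 and 257 at 6 h, 358 and 318 at 12 h, and 547 and 409.6 at 24 h. It was lowest at 6 h, and its 24 h arrays overlapped those of 0 h. The log2 change was -0.86 ± 0.21 at 6 h (adjusted p = 0.0206), -0.60 ± 0.21 at 12 h (0.045) and -0.15 at 24 h (0.587). Its call was lost at 6 h without 0 h replicate 1, 6 h replicate 1 or 6 h replicate 2 (0.0506 to 0.155) and at 12 h without 0 h replicate 1, 12 h replicate 1 or 12 h replicate 2 (0.0891 to 0.295).

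Rbm14 (1436979_x_at), a coactivator found in paraspeckles, had signals of 1119 and 1237 at 0 h, 1042 and 771 at 6 h, 776 and 790.2 at 12 h, and 556 and 399 at 24 h. The 24 h arrays were the lowest, at a log2 change of -1.26 ± 0.20 (limma adjusted p = 0.000585). At 12 h it was -0.57 (0.0487), lost without 0 h replicate 1, 0 h replicate 2, 12 h replicate 1 or 12 h replicate 2 (0.106 to 0.197). Rbm19 (1451365_at), which acts in ribosome biogenesis rather than splicing, had signals of 431 and 462 at 0 h, 258 and 305 at 6 h, 145 and 247 at 12 h, and 189.8 and 245 at 24 h. It had reached its low range by 12 h, with log2 changes of -1.10 ± 0.22 (adjusted p = 0.0038) and -0.95 ± 0.22 at 24 h (0.00559). Rbm17 (1452691_at), or SPF45, a splicing factor that binds U2-associated proteins, had signals of 1388 and 1239.6 at 0 h, 1079.7 and 1065 at 6 h, 1043 and 565 at 12 h, and 917 and 761 at 24 h. It was called at 12 h only, at -0.75 ± 0.25 (adjusted p = 0.0368), lost without 0 h replicate 1, 0 h replicate 2 or 12 h replicate 2 (0.0921 to 0.297). At 24 h its change was -0.63 (0.055), called with the replicate block (0.0235).

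Adaptors of the complex that methylates adenosines in RNA were among the other falls. Rbm15b had a log2 change of -0.90 ± 0.16 at 24 h (limma adjusted p = 0.00136) and Rbm15 of -0.68 ± 0.16 (0.00536). Rbm47, a cofactor of C-to-U RNA editing in intestinal epithelium, had -0.75 ± 0.17 (0.00484). Rbm15b was also called at 12 h (-0.69, adjusted p = 0.00883), lost without 12 h replicate 1 (0.0694), and Rbm47 too (-0.68, 0.012), lost without 0 h replicate 2, 12 h replicate 1 or 12 h replicate 2 (0.0521 to 0.0779). Rbm26, which acts in nuclear RNA decay, had -0.70 at 12 h (0.00679), lost without 12 h replicate 2 (0.06), and -0.58 at 24 h (0.0126), lost without 0 h replicate 1, 0 h replicate 2 or 24 h replicate 2 (0.0511 to 0.0589). Rbm12 had -0.61 at 24 h (0.00996), lost without 0 h replicate 1 (0.0557) or 24 h replicate 2 (0.0683). The spliceosome subunit Rbm22 had -0.55 (0.0169), lost without 0 h replicate 2, 24 h replicate 1 or 24 h replicate 2 (0.0504 to 0.128). The dim Rbm43 had -0.45 (0.0398), lost without 0 h replicate 2, 24 h replicate 1 or 24 h replicate 2 (0.111 to 0.238).

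Rbm25 (1425523_at), which regulates Bcl-x splicing, had signals of 1774 and 1593 at 0 h, 1147 and 1255 at 6 h, 1148 and 1322 at 12 h, and 1243 and 1176 at 24 h. It was at its low range by 6 h and was called at 24 h only, at -0.46 ± 0.16 (limma adjusted p = 0.0329), lost without 0 h replicate 1, 0 h replicate 2, 24 h replicate 1 or 24 h replicate 2 (0.0623 to 0.161). With the replicate block it was also called at 6 h (0.0464) and 12 h (0.0374). Rbm5 (1452186_at), a regulator of Fas splicing, had signals of 1114 and 1298 at 0 h, 952 and 817 at 6 h, 971 and 657 at 12 h, and 1185 and 758 at 24 h. Its 24 h arrays overlapped those of 0 h, and its log2 change was -0.57 at 12 h (adjusted p = 0.0914) and -0.33 at 24 h (0.285). At 12 h it was called with the replicate block (0.0484) and without 12 h replicate 1 (0.0483).

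The other Rbm genes that were not called at 24 h had changes on both sides of 0. Rbm7, a subunit of the nuclear exosome targeting complex, had -0.54 (limma adjusted p = 0.0708, called with the block at 0.0217 and without 24 h replicate 1 at 0.0392). Rbm8a, the Y14 subunit of the exon junction complex, had -0.43 (0.0529, called with the block at 0.0389 and without 24 h replicate 1 at 0.0307). Rbm6 had 0.0057 (95% interval -0.34 to 0.36), Rbm42 0.017 (-0.35 to 0.38) and the nucleolar Rbm28 0.03 (-0.54 to 0.60). Rbm38, a p53 target gene, had the highest estimate of the 50 at 24 h, at 0.39 (-0.20 to 0.97). Rbm3, Rbm10 and Srsf7 had no probe set assigned to 1 gene alone and were not analysed here.

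**Figure D3:**
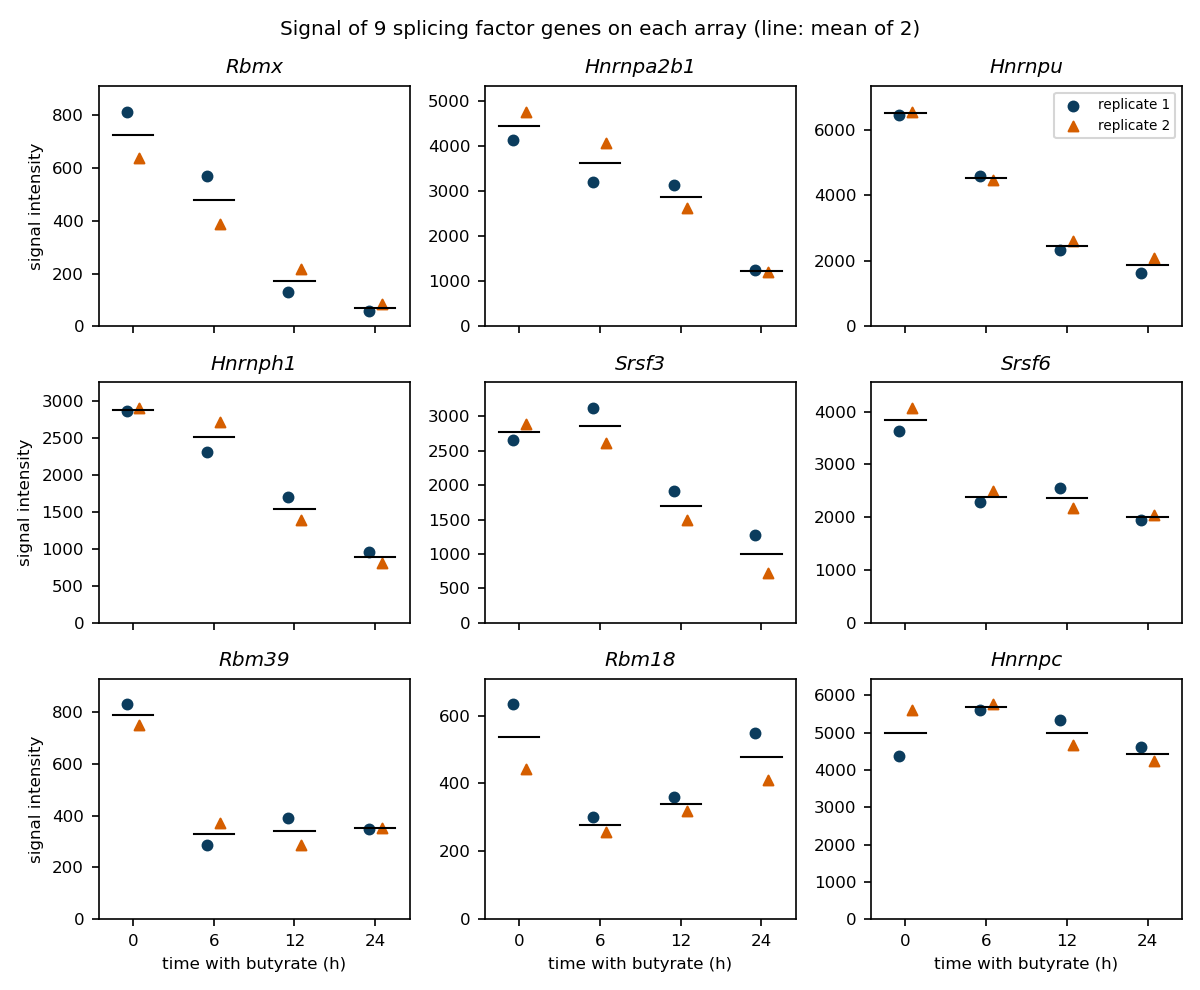
Signal intensity (linear, as deposited) of 9 members on each of the 8 arrays against time with butyrate, with circles for replicate 1, triangles for replicate 2 and lines for the mean of 2. Rbmx, Hnrnpa2b1, Hnrnpu, Hnrnph1 and Srsf3 were lowest at 24 h, Srsf6 and Rbm39 were low from 6 h on, Rbm18 was lowest at 6 h, and Hnrnpc overlapped between 0 h and each later time.

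The differences between treated times were tested without the 0 h arrays in the contrast. From 6 to 12 h, 3 members fell, beside 2.14% of all genes lower: Rbmx with a log2 change of -1.33 (limma adjusted p = 0.0227), Hnrnpu with -0.87 (0.024) and Hnrnpab with -0.81 (0.049). Without 6 h replicate 1 or 12 h replicate 1 the number was 0, and without 6 h replicate 2 or 12 h replicate 2 it was 1, while 0.177% to 0.232% of all genes were lower. From 12 to 24 h, 4 members fell, beside 3.58% of all genes: Hnrnpa2b1 with a log2 change of -1.21 (0.00432), Hnrnph1 with -0.78 (0.0289), Rbmx2 with -0.74 (0.0304) and Rbm12 with -0.63 (0.0494). Hnrnpa2b1 was called in all of its 13 alternatives, and the number was 2 without 12 h replicate 1 or 24 h replicate 1 and 1 without 12 h replicate 2 or 24 h replicate 2, while 1.05% to 1.95% of all genes were lower. Neither step called any member higher, while at an unadjusted p under 0.05 in limma the numbers higher were 2 (Hnrnph2 and Rbm12) and 0. The numbers lower at that threshold were 11 and 13, and the share of all genes at it is not given here.

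From 6 to 24 h, 18 members fell and 1 rose, beside 14% of all genes lower and 12.2% higher (limma). The fallers were 8 Hnrnp, 3 Srsf and 7 Rbm genes, led by Rbmx (-2.30 ± 0.25), Srsf3 (-1.54 ± 0.25), Hnrnpa2b1 (-1.54 ± 0.18) and Hnrnph1 (-1.47 ± 0.17). Rbm18 rose by 0.71 ± 0.21 (adjusted p = 0.0298), with both 24 h arrays above both 6 h arrays, and was not called without 6 h replicate 1 (0.0585), 6 h replicate 2 (0.131) or 24 h replicate 1 (0.186). Hnrnpul2, which was higher at 6 h than at 0 h on both arrays (0.44, adjusted p = 0.125), fell, with a log2 change of -0.70 ± 0.18 (0.0153), lost without 6 h replicate 1 (0.0999) or 24 h replicate 2 (0.0909). Leaving out 6 h replicate 1 or 24 h replicate 2 gave 11 fallers, beside 9.58% and 9.06% of all genes. Averaging the kept probe sets left Srsf10, one of the 3 Srsf fallers, at -0.25 and not called (adjusted p = 0.269). By contrast, the change of Rbm39 from 6 to 24 h was 0.099 (95% interval -0.32 to 0.52), that of Srsf6 -0.25 (-0.61 to 0.10) and that of Hnrnpa1 -0.27 (-0.73 to 0.19). These 3 values are of the probe set used. Against 0 h, Srsf6 probe set 1448454_at changed by -1.02 at 6 h and -1.64 at 24 h, and 1416720_at by -0.37 and -0.74. Hnrnpa1 probe set 1436549_a_at changed by -0.72 at 6 h, -1.56 at 12 h and -1.23 at 24 h.

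Other genes of splicing were counted by lists, to be read beside 23.5% of all genes lower and 24.6% higher at 24 h, 17.5% and 18.1% at 12 h, and 6.68% and 9.06% at 6 h. Of 32 tested splicing regulators outside the 3 families, 18 were lower (56.2%) and 2 higher (6.25%) at 24 h, with a median log2 change of -0.72. The largest falls were those of Syncrip (-2.09 ± 0.21), which encodes hnRNP Q, Sfpq (-1.91 ± 0.21), a paraspeckle protein, and Ewsr1 (-1.62 ± 0.16), while Cirbp (0.81 ± 0.15), a cold-inducible RNA-binding protein, and Sugp1 (0.67 ± 0.18) rose; Sugp1 was not called without 0 h replicate 1 (0.0521) or 24 h replicate 2 (0.0855). At 12 h, 12 of the 32 were lower (37.5%) and 2 higher, and at 6 h 4 were lower (12.5%) and 1 higher. Of 23 SR-related proteins, 10 were lower (43.5%) and 1 higher (4.35%) at 24 h, with a median of -0.15. Srek1 (-1.29 ± 0.18), the splicing activator Tra2b (-1.07 ± 0.15) and Scaf11 (-0.85 ± 0.20, lost without 0 h replicate 1 (0.0527)) led the falls, and Luc7l (0.53 ± 0.17, lost without 0 h replicate 1, 0 h replicate 2 or 24 h replicate 1 (0.0655 to 0.158)) rose. Lower SR-related genes numbered 4 of 23 with 0 h replicate 1 left out and 5 of 23 with 24 h replicate 2 left out. Both shares were near the background of 17.2% and 18.5% of all genes in those fits. At 12 h 5 were lower (21.7%, near the background) and 0 higher, and at 6 h 5 were lower (21.7%) and 1 higher.

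Of 50 tested genes of the core spliceosome, 21 were lower (42%) and 3 higher (6.0%) at 24 h, with a median of -0.39. At 12 h 5 were lower and 5 higher (10% each), and at 6 h 1 was lower (2.0%) and 3 higher (6.0%), shares below those of all genes. The largest falls were in the Sm-like genes Lsm2 (-2.26 ± 0.22), Lsm3 (-1.97 ± 0.20) and Lsm4 (-1.34 ± 0.21), whose products bind the U6 small nuclear RNA. Prpf6 (0.81 ± 0.15), Snrnp25 (0.68 ± 0.18, lost without 0 h replicate 1 (0.0646) or 24 h replicate 1 (0.054)) and Lsm7 (0.61 ± 0.16, lost without 0 h replicate 2 (0.0659)) rose, so genes of the Lsm ring moved both ways. With 0 h replicate 1 left out 9 of the 50 were lower, a share near the 17.2% of all genes. With 24 h replicate 2 left out 13 of the 50 were lower, beside 18.5% of all genes. Among 11 kinases and importers of SR proteins, 4 were lower (36.4%) and 2 higher (18.2%) at 24 h, the latter a smaller share than of all genes, and members of the CLK family moved both ways. Clk4 (-0.96 ± 0.22), Dyrk1a (-0.85 ± 0.17) and Clk1 (-0.81 ± 0.15) fell, and Clk2 (0.98 ± 0.17) and Srpk2 (0.57 ± 0.17, lost without 0 h replicate 1, 0 h replicate 2 or 24 h replicate 1 (0.0687 to 0.135)) rose. At 12 h 4 of the 11 were lower (36.4%) and 1 higher (9.09%), and at 6 h 1 and 1 (9.09% each). Of 5 tested genes of the exon junction complex and nonsense-mediated decay, 3 were lower (60%) at 24 h, Smg8 (-0.81 ± 0.21), Upf1 (-0.61 ± 0.20) and Smg5 (-0.48 ± 0.15), which dropped to 0 without 24 h replicate 1 and to 1 when any other array of the 2 times was left out; none of the 5 was lower at 12 h or 6 h, and 1 was higher at 6 h. With no filter on low values Luc7l (0.0633), Srpk2 (0.0517), Upf1 (0.0834) and Smg5 (0.0578) were not called at 24 h, and averaging probe sets ended the call of Luc7l (0.0676).

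**Figure D4:**
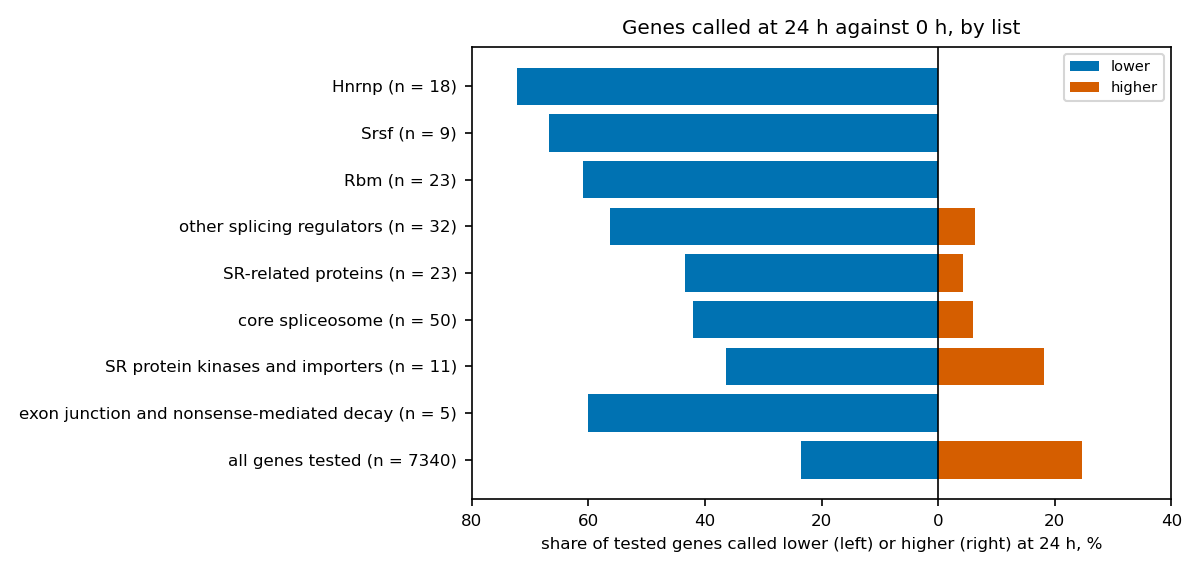
Bars give the share of tested genes called lower (blue, to the left) or higher (orange, to the right) at 24 h against 0 h for the 3 families, 5 lists of other splicing genes and all genes tested, in percent. The 3 families, the other splicing regulators and the 5 exon junction and nonsense-mediated decay genes lie above 50% lower, and all genes tested stand at 23.5% lower and 24.6% higher.

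Settings other than the arrays used also ended calls. With no filter on low values, which adjusts over more genes, the calls lost were those of Hnrnpa1, Srsf6 and Rbm18 at 6 h (limma adjusted p = 0.0738 to 0.132). At 12 h they were those of Hnrnpa2b1, Hnrnpm, Hnrnpa1, Hnrnpl, Hnrnph3, Hnrnpd, Hnrnpr, Srsf1, Srsf3, Rbm14, Rbm17 and Rbm18 (0.0526 to 0.134), and at 24 h those of Hnrnph3, Hnrnpd, Hnrnpdl, Hnrnpul1, Srsf2, Rbm25 and Rbm43 (0.0605 to 0.118). A pseudocount of 8 ended the calls of Hnrnpa1 at 6 h, Hnrnpr, Srsf3, Rbm14 and Rbm18 at 12 h and Hnrnpul1 at 24 h (0.0522 to 0.0629). Rbm43 at 24 h was also lost under a pseudocount of 64, a trend with robust eBayes and the 4 arrays alone (0.0548 to 0.0893). Quantile normalization ended the calls of Hnrnpr at 12 h (0.0504) and Hnrnpul1 at 24 h (0.0538).

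Several members have more than 1 probe set, which can report different ends or isoforms of a transcript. Besides the probe set used, 60 others of 27 members passed the filter. Of those of called members, 9 of 9 at 6 h, 37 of 39 at 12 h and 46 of 47 at 24 h had an estimate on the same side of 0 as the one used. In a fit over all probe sets named for 1 gene, 0, 11 and 26 of the 60 were called lower at 6, 12 and 24 h in limma, and 0 were called higher. The share of all probe sets called in that fit is not given here, so these counts have no background beside them. Hnrnpab held the widest spread, since 1426114_at had means of 5085 at 0 h and 4831 at 24 h (log2 change -0.064) while its other 4 probe sets changed by -1.39 to -2.06. Rbm25 was similar, where 1428907_at and 1428908_at changed by -0.0038 and 0.14 against -0.46 for the one used. Averaging all kept probe sets of a gene ended the 24 h calls of Rbm25 (-0.11, limma adjusted p = 0.554), Srsf10 (-0.36, 0.083) and Rbm26 (-0.38, 0.072). It ended the 12 h calls of Rbm26 (-0.37, 0.0889), Hnrnpk (-0.33, 0.0642), Rbm14 (0.0701) and Rbm18 (0.101), and the 6 h call of Hnrnpa1 (0.0608). In the other direction, it added calls of lower levels for Hnrnpu and Rbm47 at 6 h, Hnrnpdl, Hnrnpf and Rbm5 at 12 h, and Hnrnpr, Srsf4 and Rbm8a at 24 h, and called Rbm28 higher at 6 h (0.0366) and 12 h (0.0128). The 5 Srsf3 probe sets changed by -0.97 to -1.54, and the 4 Hnrnpa2b1 probe sets by -1.04 to -1.92. Of the 50 probe sets used, 8 carry a suffix with which the maker marks probes shared with other sequences: x for Hnrnpa1, Hnrnpab, Hnrnpf and Rbm14, and s for Hnrnpll, Rbm7, Srsf2 and Srsf6. For those 8, part of the signal may come from related sequences.

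**Figure D5:**
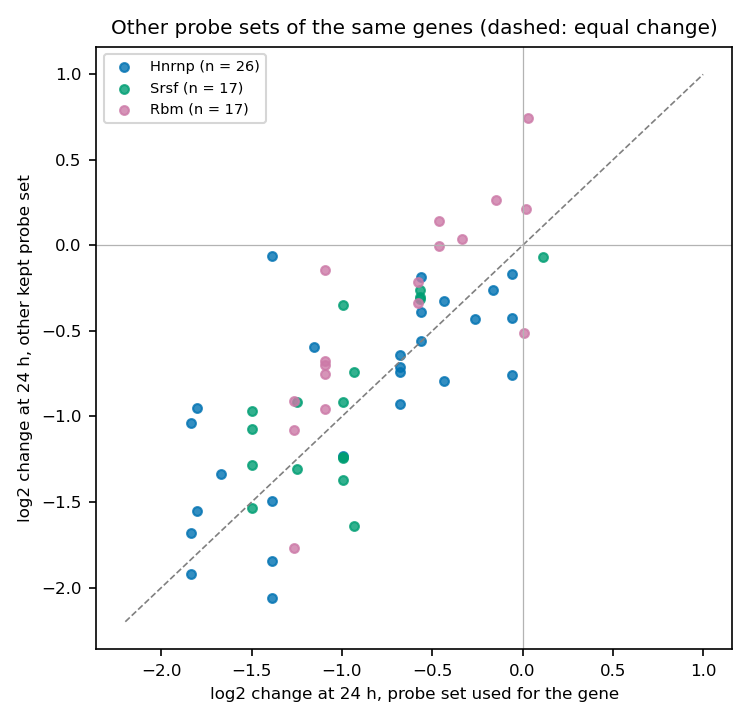
Each point is 1 of the 60 other kept probe sets of the members, with the log2 change at 24 h of the probe set used for the gene on the x axis and its own on the y axis; the dashed line marks equal change. Most points lie below 0 on both axes, and the Hnrnpab probe set near -0.064 on the y axis stands apart from that gene's others.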

How the data were processed

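The deposited table gives a linear signal intensity for each of 22690 probe sets on the Affymetrix Mouse Expression Array 430A, from total RNA labelled with phycoerythrin, per the labels and the series design. How probes were summarised into signals is, in the sources used here, not given. The 2% trimmed mean was 500.2 on every array, so the authors' intensities were already scaled, and they were used as deposited. For arrays, their number limits the precision, here 2 per time.

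Of these probe sets, 64 were controls, 20380 were annotated with 1 gene, 691 with several and 1555 with none; only those with 1 gene were named. In the RefSeq gene table of GRCm38.p6, 20351 of the 20380 were found, and 0 symbols changed. Probe sets with several genes included 13 that list a gene of the 3 families, which were not used.

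Probe sets with at least 2 of 8 signals above 144.7, the median of the table, were kept, and the kept probe set with the highest mean represented its gene. Values were log2(signal + 32), so fold changes understate those of dim genes. All 8 arrays were fitted with lmFit and eBayes of limma 3.58.1 in R 4.3.3 (residual df 4, prior df 6.373), and p-values were adjusted by Benjamini-Hochberg over 7340 genes for each comparison. Genes were called at an adjusted p under 0.05. The error beside a signal is the SD of 2 arrays, and that beside a log2 change is its standard error in limma. The script was tested on simulated data.

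The members, the lists and the promoter motifs were chosen with earlier results of these data known. Values of every array are given for the 4 largest called falls per family and comparison with 0 h and for 20 fixed genes; of other lists, the 3 largest called rises and falls at 24 h are given. Every other member may be named. Alternatives were a pseudocount of 8 or 64, no filter or a mean signal above 300, quantile normalization, a trend with robust eBayes, the replicate number as a block, the mean of all kept probe sets of a gene, only the 4 arrays compared, and leaving out each array. For comparisons between treated times they were chosen after seeing the data. Protein features were planned but not computed.

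All 4 times share the replicate numbers 1 and 2. The difference between the 2 arrays of a time correlated over genes between times at r = 0.125 to 0.382 in all 6 pairs of times, so arrays of the same number were treated as pairs in the block; no label states this pairing. Within a time the 2 arrays correlated over probe sets at r = 0.979 to 0.982, with 0.198% or fewer of their signals equal. Signal ratios of 3' to 5' probe sets were 0.767 to 0.878 for Gapdh and 1.01 to 1.12 for Actb.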

Additional observations from a re-analysis of the deposited data

Results flagged for a closer look

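The members below were picked out because their level differed between 2 treated times in a test of the difference itself (limma adjusted p under 0.05 over 7340 genes, 2 arrays per time); values are log2 changes.

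From 6 to 12 h the change was -0.87 for Hnrnpu, -0.81 for Hnrnpab and -1.33 for Rbmx. Each of these 3 calls was lost without 6 h replicate 1 and without 12 h replicate 1, with adjusted p-values of 0.0985 and 0.129 for Hnrnpu, 0.193 and 0.232 for Hnrnpab, and 0.116 and 0.128 for Rbmx. With averaged probe sets Hnrnpab was not called either (-0.55, 0.0557).

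From 12 to 24 h it was -1.21 for Hnrnpa2b1, -0.78 for Hnrnph1, -0.74 for Rbmx2 and -0.63 for Rbm12. Hnrnpa2b1 was called under all 13 alternatives run, with adjusted p-values up to 0.0399, and the other 3 were called under 6, 7 and 6 of their alternatives. With averaged probe sets Hnrnph1 was not called (-0.65, 0.0603).

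From 6 to 24 h the Hnrnp genes with a tested difference were Hnrnpa2b1 (-1.54), Hnrnph1 (-1.47), Hnrnpab (-1.35), Hnrnpu (-1.28), Hnrnpm (-0.93), Hnrnpl (-0.93), Hnrnpll (-0.91) and Hnrnpul2 (-0.70). The Srsf genes were Srsf3 (-1.54), Srsf5 (-0.82) and Srsf10 (-0.59). The Rbm genes that fell were Rbmx (-2.30), Rbm14 (-0.88), Rbmx2 (-0.60), Rbm15b (-0.59), Rbm43 (-0.52), Rbm8a (-0.51) and Rbm15 (-0.51). Rbm18 was the 1 member that rose, by 0.71. With the kept probe sets of a gene averaged, Srsf10 was at -0.25 and not called (adjusted p = 0.269). Hnrnpa2b1, Hnrnph1, Hnrnpab, Hnrnpu, Hnrnpll, Srsf3 and Rbmx were called under every alternative run for this comparison.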

How the results depend on the processing

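Over the 50 members and 3 comparisons with 0 h, no single-gene estimate that was called in either fit changed sign under any alternative run; 1741 values kept their side of the threshold, 139 called changes were no longer called and 49 others became called. At 24 h, 18 of the 33 calls held under every alternative, at 12 h 5 of 24 (Hnrnpu, Hnrnph1, Rbmx, Rbm39 and Rbm19) and at 6 h 1 of 4 (Rbm39). With all arrays in place, these numbers were 24, 10 and 1.

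At 6 h, the number of lower Hnrnp genes (1) was 0 with a pseudocount of 8 or no filter and 2 with the stricter filter, the trend or the replicate block. That of Srsf genes (1) was 0 with no filter and 2 with the block. That of Rbm genes (2) was 1 with no filter, 4 with the trend and 7 with the block. Of all genes at 6 h, 1.275% were lower with no filter and 6.05% with a pseudocount of 8. The share was 6.67% with the stricter filter, 6.80% with the trend and 9.32% with the block. With the replicate block 1 Hnrnp gene was higher at 6 h, and with the mean of all kept probe sets 1 Rbm gene was higher at 6 h and 1 at 12 h. With no filter, which tests 12393 genes, 5 Hnrnp and 1 Srsf genes were lower at 12 h, beside 7.24% of all genes. Between treated times, no filter left 0 lower members from 6 to 12 h, beside 0.00807% of all genes lower. It left 1 from 12 to 24 h, beside 0.710%. From 6 to 24 h it left 9 lower and 0 higher, beside 5.25% and 5.38% of all genes. Only the 4 arrays compared left 0 lower from 6 to 12 h and 2 from 12 to 24 h, beside 0.191% and 3.16% of all genes. The block changed no count of calls by over 1.5 times at 12 or 24 h.

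Leaving out 1 array at a time gave 0 to 1 lower Hnrnp, 0 to 1 Srsf and 1 to 2 Rbm genes at 6 h. At 12 h it gave 2 to 10, 0 to 2 and 4 to 6, and at 24 h 8 to 10 Hnrnp and 9 to 12 Rbm genes. Between treated times it gave 0 to 1 lower members from 6 to 12 h, 1 to 2 from 12 to 24 h, and 11 to 13 lower with 0 to 1 higher from 6 to 24 h. Without 1 array, the share of all genes called lower was also smaller than with all 8 arrays, in every comparison. Fewer Srsf genes were likewise called lower at 24 h. The causes were not tested. Signals under the pseudocount of 32, where changes are compressed, made up 21.2% to 26.4% of each array.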
